A study of Homo sapiens with 8 samples.

Results

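The 9 genes chosen here were the keratins KRT7, KRT8, KRT10, KRT18, KRT19, KRT80, KRT81 and KRT86 and the vimentin gene VIM. They were selected on measured values, after KRT8 and KRT18 had been seen to be high in the uveal melanoma (UVM) line MEL290 and near 0 in the UVM line 92.1, so their difference between the lines is a description and was not tested. Of the 9, 8 were among the 19952 gene symbols listed. KRT86 was not among them and was not analysed here. RNA was sequenced from 8 libraries in 4 groups of 2. The 92.1 cells carried either shCtrl, which the study's methods describe as an empty vector, or shA3B, a short hairpin RNA against the cytidine deaminase APOBEC3B (A3B) delivered by a lentivirus under puromycin selection. The MEL290 cells were labelled NC, a control whose construct is not given in the sources used here, or A3B OE, in which A3B was overexpressed from a lentiviral vector. Both lines grew in RPMI1640 medium with serum. Each condition was studied in 1 line only, and the labels do not say that replicates came from separate cultures, so p-values measure the spread between these libraries.

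Keratins and vimentin build the intermediate filaments, the flexible protein cables of the cytoplasm. Keratins assemble only as pairs of 1 acidic type I and 1 basic type II chain, and a chain without a partner is usually degraded. KRT8 (type II) and KRT18 (type I) are the pair of simple epithelia, often joined by KRT7 and KRT19, whereas KRT10 belongs to the upper epidermis and KRT81 and KRT86 to hair. Vimentin, a type III filament protein, is typical of mesenchymal cells and of melanocytes, which are not epithelial and normally carry little keratin. Melanoma cells that contain both keratin and vimentin filaments have long been known to pathologists.

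The genes lie in the known clusters of the human genome (GRCh38, GENCODE release 44). The type II genes lie on chromosome 12, KRT80 at chr12:52168996-52192014, KRT7 at chr12:52232520-52252186, KRT81 at chr12:52285913-52291534 and KRT8 at chr12:52897187-52949954. KRT18, at chr12:52948871-52952906, is the type I gene that sits beside KRT8 rather than in the type I cluster, and the annotated genes share 1084 bases on opposite strands. KRT10 at chr17:40818117-40822614 and KRT19 at chr17:41523617-41528308 belong to the type I cluster, and VIM lies at chr10:17228241-17237593. Whether counting used strand is not given in the sources used here, so reads of KRT8 and KRT18 in the shared bases, and reads of KRT7, KRT10 or VIM and their antisense genes, cannot be told apart. The canonical transcripts of KRT8 (chr12:52897191-52905076) and KRT18 (chr12:52949118-52952906) do not overlap, and the shared bases lie outside that KRT8 transcript. KRT7 also shares 2887 annotated bases with KRT86 on the same strand, outside its canonical transcript, which ends at chr12:52248921. KRT81 lies wholly inside the annotated span of KRT86, on the opposite strand, and 29.4% of the 100-base windows of its transcript occur letter for letter in the KRT86 transcript. The longest such run is 605 bases. The first 150 of them, bases 130 to 279 of the KRT81 transcript and all coding, are shown because a read from this stretch could belong to either gene. All letters are shared, so none is in capitals.
KRT81 and KRT86: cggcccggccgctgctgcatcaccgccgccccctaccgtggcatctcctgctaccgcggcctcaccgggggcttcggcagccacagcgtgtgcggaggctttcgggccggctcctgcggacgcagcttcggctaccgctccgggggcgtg
The KRT81 values below are uncertain for that reason. Of the KRT8 windows, 7.12% also occur in other keratin genes or pseudogenes, and none of the windows of KRT7, KRT10, KRT18, KRT19, KRT80 or VIM does.

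Start-site sequence was matched by symbol in the RefSeq promoter table (GRCh38.p14) for 3 of the 8 genes, KRT8, KRT10 and VIM. The KRT8 entry starts 21393 bases from the start of the GENCODE canonical transcript and is not shown. KRT10 and VIM are shown, as the pair of members with at least 20 FPKM in every 92.1 library, 1 of them lower and the other higher in MEL290. Each run holds the 250 bases before the start site, and the capitals mark a TATA box (TATAAA) in KRT10, on the minus strand of chr17:40822615-40822864, and a GC box (GGGCGG) in VIM, on the plus strand of chr10:17227991-17228240.
KRT10: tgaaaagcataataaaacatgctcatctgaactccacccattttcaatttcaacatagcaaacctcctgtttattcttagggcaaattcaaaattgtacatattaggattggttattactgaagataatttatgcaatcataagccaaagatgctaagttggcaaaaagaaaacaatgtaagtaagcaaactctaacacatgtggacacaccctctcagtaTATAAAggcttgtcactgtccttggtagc
VIM: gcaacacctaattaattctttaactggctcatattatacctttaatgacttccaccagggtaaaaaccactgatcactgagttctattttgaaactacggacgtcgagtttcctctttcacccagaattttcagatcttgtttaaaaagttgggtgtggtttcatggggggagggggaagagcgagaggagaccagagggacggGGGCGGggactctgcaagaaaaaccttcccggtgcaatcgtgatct
The TATA box began 29 bases before the KRT10 start and the GC box 46 bases before the VIM start. Searched on both strands, TATAAA was found in 11.5% of all 35116 promoter windows of 300 bases, GGGCGG in 45.0%, the AP-1 site TGANTCA in 7.71% and the ZEB and SNAI site CACCTG in 20.6%. The last 2 motifs had no match in the windows of KRT8, KRT10 or VIM. A match describes letters and not a bound site.

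Values are FPKM, the number of fragments of a gene divided by its transcript length and by the mapped fragments of the library, as deposited. A gene was tested where its FPKM reached 1 in at least 2 libraries of a fit, with limma on log2(FPKM + 1), and called at a Benjamini-Hochberg adjusted p under 0.05. Changes on this scale understate those of low genes. APOBEC3B itself followed the labels, at 35.9 and 32.3 FPKM in shCtrl, 1.98 and 2.37 in shA3B, 2.67 and 2.19 in NC and 28.4 and 27.5 in A3B OE. A rough depth, read from the values that 1 fragment gives, came to between 17700000 and 32200000 fragments a library. The labelled cell type was checked against its markers. In 92.1, 13 of 14 melanocyte markers were at 1 FPKM or more in every library and their summed level was 7364 to 8997 FPKM. In MEL290, 2 of the 14 were, the regulator MITF at 13.7 to 19.6 FPKM and GPR143 at 14.8 to 18.7, the sum was 33.0 to 39.4 FPKM, the melanosome gene PMEL stood at 0.836 to 1.31 FPKM and SOX10 at 0 to 0.168 FPKM. MITF and GPR143 were thus present in MEL290, and the other 12 melanocyte markers were not at 1 FPKM in every library. The keratin values of MEL290 are those of cells with this marker pattern, and its part in them was not tested.

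KRT8 and KRT18, the simple epithelial pair, were among the most abundant transcripts of MEL290 and close to nothing in 92.1. KRT8 stood at 1295 and 1283 FPKM in the NC libraries and 1047 and 907 in the A3B OE libraries. In 92.1 it stood at 0.0658 and 0.0886 FPKM in shCtrl and 0.159 and 0.347 in shA3B, which corresponds to roughly 3, 4, 7 and 18 fragments. The lowest MEL290 library was thus far above the highest 92.1 library, and the ratio of the line means was 6867. KRT18 stood at 1251 and 1298 FPKM in NC and 849 and 770 in A3B OE. In 92.1 it was low but well counted, at 2.85 and 3.32 FPKM in shCtrl and 3.65 and 4.09 in shA3B, roughly 94, 102, 123 and 160 fragments, for a ratio of line means of 300. KRT8 ranked 76 and 81 among all 19952 genes in NC and 101 and 107 in A3B OE, and KRT18 ranked 79 and 78 and then 116 and 118. In bulk RNA, fewer cells with a transcript and less of it per cell cannot be told apart, so these levels do not say whether every MEL290 cell carried keratin.

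**Figure D1:**
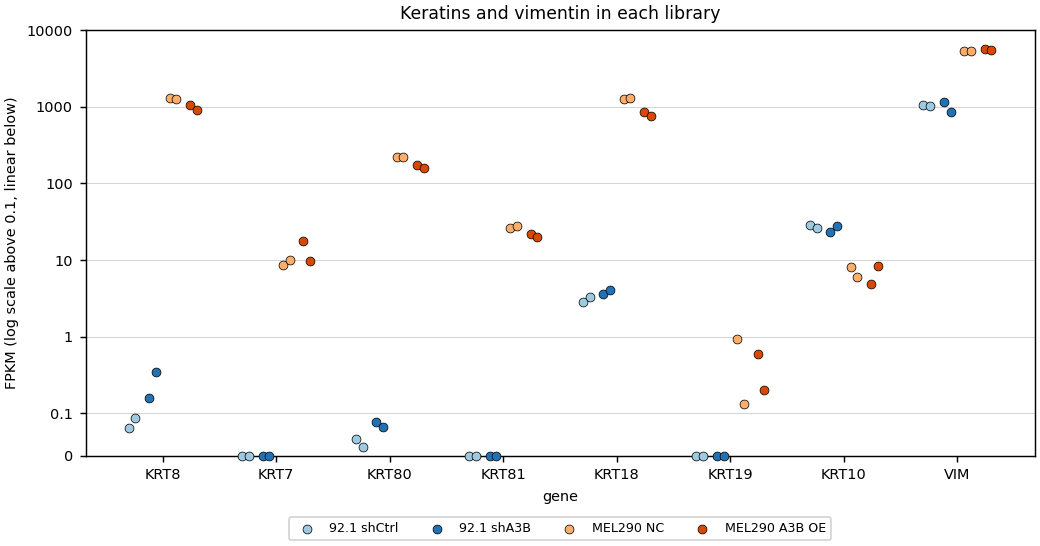
FPKM (vertical axis, logarithmic above 0.1 and linear below) of the 8 keratin and vimentin genes with values in each of the 8 libraries, 1 point a library, coloured by group. KRT8, KRT18 and KRT80 stand at 160 FPKM or more in MEL290 and under 5 in 92.1, KRT7 and KRT81 are listed at 0 in 92.1, KRT10 is the member higher in 92.1, and VIM is at 846 FPKM or more in all 8.

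KRT80, a type II keratin found at low level in many epithelia, came next. It stood at 220 and 221 FPKM in NC and 174 and 160 in A3B OE, against 0.0396 and 0.0213 in shCtrl and 0.0788 and 0.0675 in shA3B, a ratio of line means of 3743. KRT81, a hair keratin, stood at 26.1 and 27.9 FPKM in NC and 22.0 and 19.7 in A3B OE and was listed at 0 in all 4 libraries of 92.1, so no ratio is given. KRT7, which accompanies KRT8 and KRT18 in ductal and glandular epithelia, was likewise listed at 0 in 92.1 and stood at 8.68 and 10.2 FPKM in NC and 17.7 and 9.82 in A3B OE. These 3 type II genes thus shared the direction of KRT8 at very different heights. KRT19, a type I partner in the same epithelia, was scarcely present in MEL290, at 0.918 and 0.130 FPKM in NC and 0.586 and 0.200 in A3B OE, roughly 19, 3, 19 and 5 fragments, and was listed at 0 in 92.1. Within MEL290 the order by line mean was VIM, KRT8, KRT18, KRT80, KRT81, KRT7, KRT10 and KRT19. In this order the ranges of KRT8 (907 to 1295 FPKM) and KRT18 (770 to 1298) overlapped over the 4 libraries. In NC the values of both genes were interleaved, and in A3B OE both KRT8 values (1047 and 907) lay above both KRT18 values (849 and 770). The ranges of the other neighbours did not overlap, though KRT7 and KRT10 nearly met, at 8.68 and 8.34 FPKM.

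KRT10 and VIM were transcribed in both lines. KRT10, the type I keratin of the upper epidermis, stood at 28.8 and 26.2 FPKM in shCtrl and 23.0 and 28.1 in shA3B, above its values of 8.13 and 5.92 in NC and 4.82 and 8.34 in A3B OE, a ratio of line means of 3.90 in favour of 92.1. VIM stood at 1069 and 1023 FPKM in shCtrl, 1147 and 846 in shA3B, 5290 and 5438 in NC and 5765 and 5469 in A3B OE, 5.38 times higher by line means in MEL290. It was a top transcript in both lines, at rank 96 to 110 in 92.1 and rank 10 or 11 in MEL290. Of the 7 members that reached 1 FPKM in at least 2 libraries, 6 had all MEL290 libraries above all 92.1 libraries, where 33.5% of all 12697 genes at that level did, and KRT10 was the 1 with all 92.1 libraries above, where 39.3% of genes did. The members were chosen from this contrast, so nothing is read from those shares.

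The wider keratin family was read in the same libraries. Of 54 listed keratins, 47 were listed at 0 in all 4 libraries of 92.1 and 25 in all 4 of MEL290. In 92.1 between 3 and 4 keratins reached 1 FPKM in a library, and KRT10, KRT18 and KRT23, another type I gene, did so in all 4. In MEL290 between 14 and 15 did, and 12 keratins were at 1 FPKM or more in all 4 libraries and above every 92.1 library. Of these, 5 were members and the other 7 were all type I genes. Over all genes at 1 FPKM or more in at least 2 of the 8 libraries, 33.5% had every MEL290 library above every 92.1 library. That share does not ask for 1 FPKM in all 4 MEL290 libraries, so nothing is read from the count. The hair keratins KRT33B and KRT34 stood at 87.9 and 92.8 and at 111 and 99.4 FPKM in NC, KRT13, of wet stratified epithelia, at 25.9 and 31.3, and KRT16, of wounded and fast-growing epidermis, at 29.3 and 27.7, and all 4 were listed at 0 in 92.1. KRT23 went the other way, with 2.24 to 5.52 FPKM in 92.1 and 0.293 to 0.522 in MEL290.

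The balance of the chain types differed between the lines. Summed over 29 type I and 25 type II genes, NC held 1531 and 1575 FPKM of type I and 1550 and 1542 of type II, a ratio of 0.988 and 1.02. In 92.1 the whole family came to 32.5 to 37.3 FPKM, of which KRT10 made 67.3% to 80.7%, and the type II sum was 0.105 to 0.414 FPKM, so the type I transcripts of 92.1 stood with almost no type II transcript beside them. The KRT10 values may include reads of its antisense gene, which shares 3514 annotated bases with it, since the use of strand is not known. KRT8 and KRT18 together made 81.9% to 82.8% of the keratin FPKM of MEL290. Keratins were 0.495% and 0.50% of all FPKM in NC and 0.00492% to 0.00590% in 92.1, while VIM was 0.850% to 0.898% in MEL290 and 0.134% to 0.169% in 92.1. VIM therefore exceeded the summed keratins 22.7 to 33.5 times in 92.1 and 1.72 and 1.74 times in NC.

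**Figure D2:**
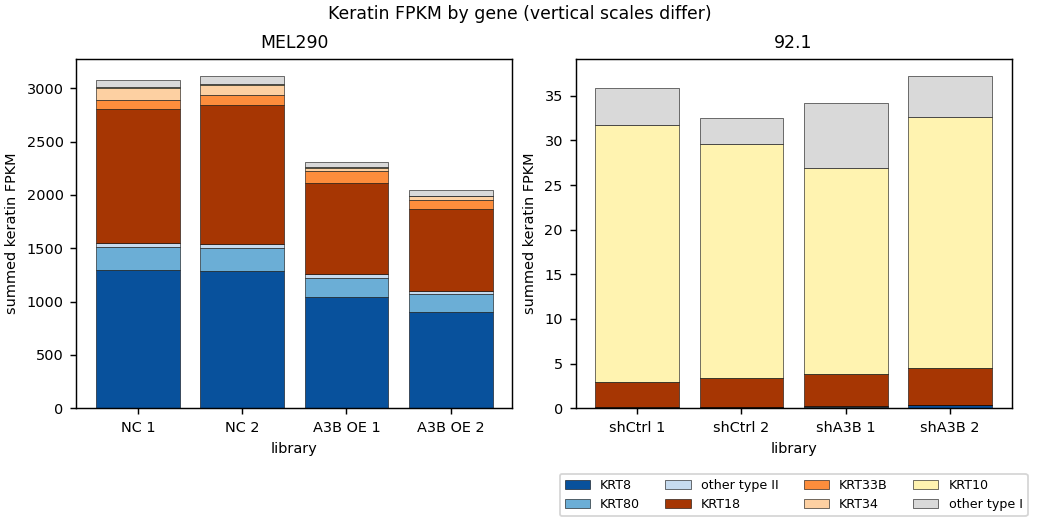
Summed FPKM of all listed keratins in each library, stacked by gene, type II genes in blue at the bottom, KRT10 in yellow and the other type I genes in orange and grey, with a separate vertical scale for each line. The MEL290 bars reach 3081 and 3117 FPKM in NC and 2312 and 2048 in A3B OE and are mostly KRT8 and KRT18, whereas the 92.1 bars reach 32.5 to 37.3 FPKM and are mostly KRT10.

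The first within-line comparison asked what overexpression of A3B did in MEL290, a contrast that the choice of genes did not use. For KRT8, KRT18, KRT80 and KRT81 neither A3B OE library reached the lower NC library, as was so for 29.7% of all genes tested. KRT18 fell by 36.5% in mean FPKM, from 1275 ± 33.3 (SD, n = 2) to 809 ± 55.5 (SD, n = 2), a log2 change of -0.66 (standard error 0.071, limma adjusted p = 0.0041). KRT8 fell by 24.2%, from 1289 ± 8.85 FPKM (SD, n = 2) to 977 ± 99.6 (SD, n = 2), with a log2 change of -0.40 (standard error 0.082, limma adjusted p = 0.023). KRT80 fell by 24.2%, from 221 ± 1.01 FPKM (SD, n = 2) to 167 ± 10.2 (SD, n = 2), with a log2 change of -0.40 (standard error 0.070, limma adjusted p = 0.015). Of the 7 members tested 3 were thus lower and 0 higher, where 7.49% of the 11611 genes tested were lower and 10.3% higher, and the median log2 change was -0.36 over the members and 0.0041 over all genes. The KRT18 call held in every alternative run for this comparison, whereas KRT8 and KRT80 passed the threshold by less and lost the call without the filter on low FPKM (adjusted p = 0.098 and 0.055) and without the limma trend (0.073 and 0.056). KRT8 also lost it without NC replicate 1 (adjusted p = 0.051) and KRT80 without A3B OE replicate 2 (0.0505).

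The remaining members did not pass the test. KRT81 had a log2 change of -0.36 (standard error 0.099, limma adjusted p = 0.055), with non-overlapping libraries, and passed under quantile normalization (0.047) and upper quartile scaling (0.049). KRT7 had a log2 change of 0.45 (standard error 0.26, limma adjusted p = 0.27), which came from A3B OE replicate 1 at 17.7 FPKM, since replicate 2 at 9.82 lay within the NC values. KRT10 had -0.11 (standard error 0.25, limma adjusted p = 0.81) with overlapping libraries. VIM had 0.066 (standard error 0.064, limma adjusted p = 0.52), so the vimentin level differed by less than the test resolved while its keratin neighbours fell. KRT19 was below the filter and was not tested.

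**Figure D3:**
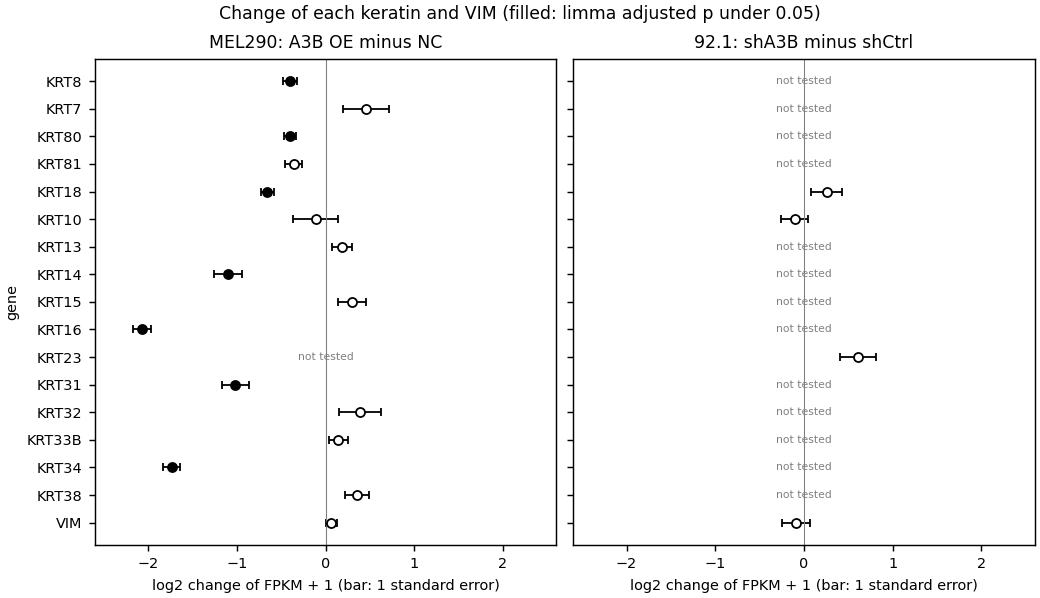
Log2 change of FPKM + 1 (horizontal axis) for the members and the other keratins tested, in MEL290 (A3B OE minus NC, left) and 92.1 (shA3B minus shCtrl, right), with bars of 1 standard error and filled points for a limma adjusted p under 0.05. In MEL290 the 7 filled points, KRT8, KRT80, KRT18, KRT14, KRT16, KRT31 and KRT34, all lie below 0, and in 92.1 no keratin has a filled point. KRT14 met the filter in MEL290 through its NC libraries alone.

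Among the other keratins, KRT16, KRT34 and KRT31 had larger changes than the members. Of the 47 keratins outside the members 9 could be tested in MEL290, of which 4 were lower and 0 higher, with a median log2 change of 0.14. The 4 include KRT14, which could be tested only through the group where it was higher, so nothing is read from this count. Over all 11611 genes tested, 7.49% were lower and 10.3% higher, and the median was 0.0041. KRT16 went from 29.3 and 27.7 FPKM to 6.03 and 6.01, a log2 change of -2.07 (standard error 0.10, limma adjusted p = 0.00078). KRT34 went from 111 and 99.4 FPKM to 33.0 and 28.9, a log2 change of -1.73 (limma adjusted p = 0.0011). The hair keratin KRT31 (6.44 and 5.54 FPKM, then 2.78 and 2.15) and KRT14 of basal epidermis (1.98 and 2.36, then 0.412 and 0.545) had log2 changes of -1.02 and -1.10 (limma adjusted p = 0.011 and 0.0091). KRT14 reached 1 FPKM in the NC libraries alone, so it was tested only through the group where it was higher. Nothing is read from its call. KRT31 lost the call without the filter (0.058) and without A3B OE replicate 2 (0.063), and KRT14 without A3B OE replicate 1 (0.052). The other 5, KRT13, KRT15, KRT32, KRT33B and KRT38, had log2 changes of 0.14 to 0.39 and were not called. KRT33B, the neighbour of KRT34 in the type I cluster, stood at 87.9 and 92.8 FPKM in NC and 110 and 90.1 in A3B OE, and its groups overlapped.

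The same changes can be read as sums and ratios of the keratin pool. The summed keratin FPKM went from 3081 and 3117 in NC to 2312 and 2048 in A3B OE. The ratio of type I to type II was 0.988 and 1.02 in NC and 0.832 and 0.868 in A3B OE, and the ratio of KRT8 to KRT18 was 1.04 and 0.988 in NC and 1.23 and 1.18 in A3B OE. VIM came to 1.72 and 1.74 times the keratin sum in NC and to 2.49 and 2.67 times in A3B OE. The groups did not overlap in any of the 4 measures, but all 4 rest largely on the same KRT8 and KRT18 values and are not separate results. With 2 libraries against 2 an exact two-sided permutation test cannot give a p below 0.33, so no test is given for them. KRT8 and KRT18 together made 82.6% and 82.8% of the keratin sum in NC and 82.0% and 81.9% in A3B OE, so their joint share changed little.

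The second comparison asked what depletion of A3B did in 92.1. Only KRT10, KRT18 and VIM reached the level to be tested. KRT18 had a log2 change of 0.25 (standard error 0.17), KRT10 of -0.11 (standard error 0.15) and VIM of -0.086 (standard error 0.16), each with a limma adjusted p of 0.999. Of these 3 members 0 were called, where 0% of all 11605 tested genes were called higher and 0.00862%, APOBEC3B alone, lower, and 336 genes had an unadjusted p under 0.05. Both shA3B libraries lay above both shCtrl libraries for KRT18, as they did for 15.3% of all genes tested, and also for KRT8 and KRT80 at a few fragments each, which were too low to be tested. KRT23 was the 1 other keratin tested, with a log2 change of 0.61 (standard error 0.21, limma adjusted p = 0.999).

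The effects in the lines were then set against each other in 1 fit of all 8 libraries, as the change with A3B OE minus the change with shA3B. KRT18 differed, by a log2 value of -0.91 (standard error 0.14, limma adjusted p = 0.016). It was the 1 member called, where 1.35% of the 12697 genes tested were called lower and 3.06% higher. The other members tested were KRT10, VIM and 4 genes, KRT7, KRT8, KRT80 and KRT81, that entered this fit through MEL290 alone, and nothing is read from their number. Leaving out 1 library took the limma adjusted p of KRT18 over 0.05 in 5 of 8 cases (shA3B replicate 2 and each of the MEL290 libraries), to between 0.051 and 0.075. KRT8 and KRT80 had values of -0.62 and -0.46 (standard errors 0.16 and 0.14) and were not called. In 92.1 they rest on roughly 3 to 18 and 2 to 8 fragments a library. These values are therefore not read as a difference between the lines, and no p-value is given. KRT81 and KRT7 are listed at 0 in 92.1, so no difference is given for them. KRT10 and VIM had differences of -0.0023 and 0.15, with limma adjusted p-values of 1.0 and 0.72. The manipulations ran in opposite directions in different lines, so the difference does not separate the line from the direction of the A3B change.

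The other intermediate filament genes included some that were high in 92.1. NES, the filament protein of neural and melanocyte precursors, stood at 45.6 to 64.7 FPKM in 92.1 and 0.0205 to 0.471 in MEL290, and the neurofilament gene NEFH at 15.7 to 22.0 and 0.00975 to 0.0837, so the nestin transcript was high in the line in which the keratins were low. Of 14 such genes, 0 had all MEL290 libraries above all 92.1 libraries and 5 the reverse, where 33.5% and 39.3% of genes at 1 FPKM or more in 2 libraries did. Only 6 of the 14 were at that level, and INA, 1 of the 5, was not, so counts and shares cover unlike sets. In MEL290 with A3B OE the 4 tested were all higher, the nuclear lamins LMNB1 (13.1 and 13.3, then 33.3 and 35.4 FPKM, log2 change 1.31), LMNB2 (0.75) and LMNA (0.52) and the vimentin partner SYNM (0.72), with limma adjusted p-values of 0.0017 to 0.018. LMNA lost the call without the filter (0.063) and SYNM without either A3B OE library (0.084 and 0.081), whereas LMNB1 and LMNB2 kept it in every alternative. In 92.1, 6 were tested and 0 were called. Over all genes 10.3% were called higher in MEL290. The 3 lamins and SYNM thus rose in the same A3B OE libraries in which KRT8, KRT18 and KRT80 fell.

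Transcripts of the proteins that tie keratin filaments to desmosomes and hemidesmosomes were partly present in MEL290. Of 21 linker and desmosome genes, 14 had all MEL290 libraries above all 92.1 libraries, where 33.5% of genes at 1 FPKM or more in 2 libraries did, and FAM83H was the 1 with the reverse (24.7 to 31.7 FPKM in 92.1, 0.975 to 3.36 in MEL290). Of the 21, 15 were at that level. DSC1 and EPPK1, counted among the 14, were not, so the count and the share cover unlike sets. The plakin PLEC stood at 118 to 167 FPKM against 22.5 to 27.5, DST at 50.5 to 69.4 against 3.54 to 5.79, and DSP, the desmosomal plakin, at 7.35 to 9.54 against 0.276 to 0.481. The desmosome genes PKP2 and DSC3 stood at 6.84 to 9.97 and 7.17 to 9.67 FPKM and were listed at 0 in 92.1. With A3B OE, 15 were tested, PLEC (-0.44) and DST (-0.35) were lower, and FAM83H (1.02), which recruits kinase to keratin, and PPL (0.71) were higher, counts to be read against the 7.49% lower and 10.3% higher over all genes. DST, PPL and FAM83H each lost the call in at least 1 case of a library left out, and PLEC in none. The median was 0.19, against 0.0041 over all genes, and in 92.1 0 of 9 were called.

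Epithelial markers outside the keratins were low in both lines. Of 28, 19 were under 1 FPKM in all 8 libraries, the summed level was 40.9 to 48.6 FPKM in 92.1 and 19.0 to 21.7 in MEL290, and EPCAM stood at 0.0728 FPKM or less. E-cadherin (CDH1) stood at 0.0618 to 0.277 FPKM in 92.1 and 0.18 to 2.14 in MEL290, and GRHL2 was listed at 0 in all 8. The splicing factor ESRP1, typical of epithelia, was higher in 92.1, at 20.0 to 26.9 FPKM, and listed at 0 in MEL290. CDH3, CGN and SPINT1 were also higher in every 92.1 library, CDH3 at 4.98 to 6.89 FPKM against 0.210 to 0.657. CLDN3, CLDN4, MARVELD2 and MUC1 were instead higher in every MEL290 library, CLDN4 at 1.84 to 5.13 FPKM against 0.316 to 0.514. MAL2 (6.69 to 8.90 FPKM) and OCLN (1.44 to 2.67) were also above 1 FPKM in every MEL290 library, with ranges that overlapped those of 92.1. The keratins of MEL290 thus stood without most transcripts of this list of 28. The list does not hold the desmosome genes DSP, PKP2 and DSC3, which were present in MEL290. Of 5 tested with A3B OE, OCLN (0.54) was higher and CLDN4 (-0.80) lower, and both lost the call without the filter (limma adjusted p = 0.063 and 0.11).

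Many mesenchymal markers, like VIM, were higher in MEL290. Their summed level was 485 to 607 FPKM in 92.1 and 6898 to 7986 in MEL290, and 13 of 20 had all MEL290 libraries above all 92.1 libraries (33.5% over the genes at 1 FPKM or more in 2 libraries), among them TGFBI, listed at 0 in 92.1 and at 3340 and 3449 FPKM in NC. Of the 20 genes, 19 reached 1 FPKM in 2 libraries. The regulators SNAI2, TWIST1 and ZEB2 were higher in 92.1, and ZEB1 was higher in MEL290. With A3B OE, where 10.3% of all genes were called higher and 7.49% lower, 6 of 17 tested rose (AXL 1.07, CDH11 0.72, ZEB1 0.49, NT5E 0.46, FN1 0.41 and LGALS1 0.36) and 3 fell (TGFBI -0.87, ACTA2 -0.51 and SPARC -0.29), while VIM passed in neither direction. Of these, ZEB1, LGALS1, SPARC and ACTA2 lost the call without the filter, FN1 and NT5E lost it in the fit of all 8 libraries (limma adjusted p = 0.30 and 0.11), and AXL, CDH11 and TGFBI kept it in every alternative.

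Markers of other cell types were read in the same libraries. Of 8 mesothelial markers, from a lining that carries KRT8, KRT18 and VIM together, 2 (UPK3B and PDPN) were at 1 FPKM or more in every MEL290 library, and the sum was 33.7 to 42.4 FPKM against 3.87 to 4.72 in 92.1, with WT1 listed at 0 and MSLN at 0.655 or less in MEL290. Of 9 fibroblast markers 4 were (COL1A1, PDGFRB, FAP and POSTN), with COL1A2 and COL3A1 at 0.26 or less, and the sum was 86.4 and 89.0 FPKM in NC and 132 and 133 in A3B OE, against 6.49 to 8.83 in 92.1. Of 8 markers of the retinal pigment epithelium 1 was (LRAT), with RPE65 listed at 0, and the sum was 2.92 to 5.34 FPKM against 186 to 249 in 92.1. SERPINF1 alone, at 176 to 240 FPKM, made most of the 92.1 sum. Of 9 blood and endothelial markers 1 was (CD68), with CD3E and CDH5 listed at 0 in all 8 libraries, and the sum was 26.2 to 31.9 FPKM against 14.7 to 35.1 in 92.1. Nearly all of it was CD68, at 26.1 to 31.6 FPKM in MEL290 and 14.5 to 35.0 in 92.1. Of the genes in these 4 lists that could be tested, POSTN alone was called, higher with A3B OE (log2 change 1.28, limma adjusted p = 0.0024). The part of these cell types in the keratin values was not tested.

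**Figure D4:**
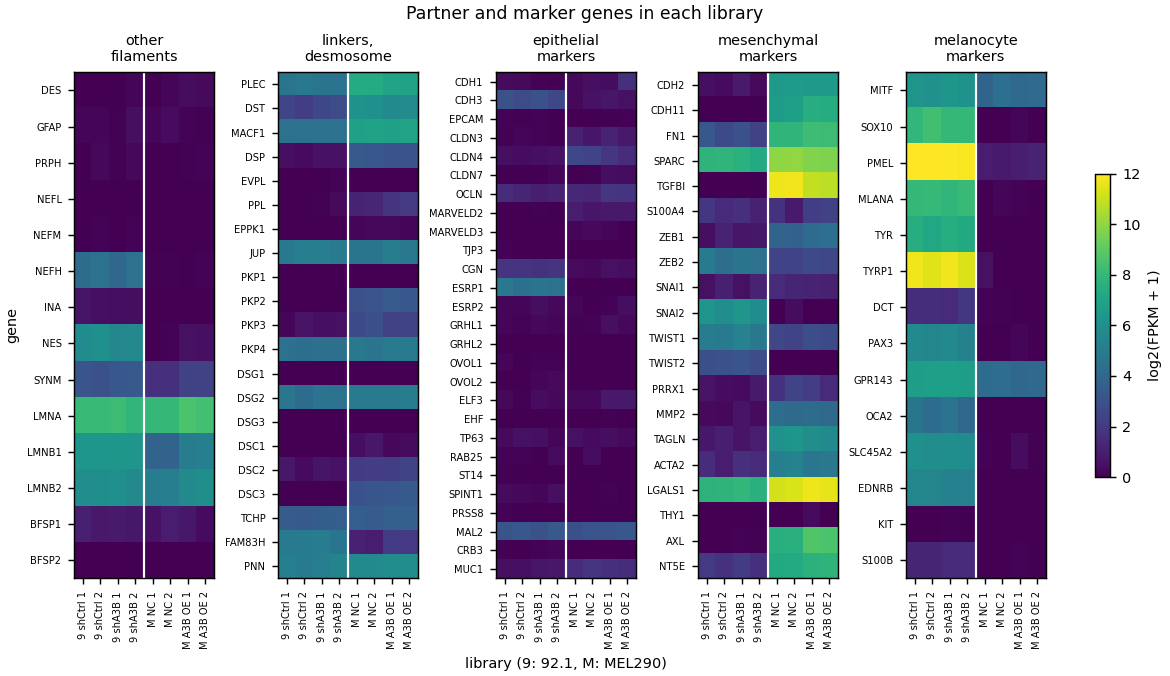
Log2(FPKM + 1) by colour for the genes (rows) of 5 lists, with 1 epithelial gene not shown, in the 8 libraries (columns, 92.1 left and MEL290 right of the white line). The melanocyte rows are bright in 92.1 and dark in MEL290, most epithelial rows are dark in all 8, and the linker and mesenchymal rows are mostly brighter in MEL290.

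The 4 genes whose log2(FPKM + 1) followed KRT8 most closely over the 8 libraries, among 12697, were KRT80 (Pearson r = 0.9998), ANXA8L1, ARSI and GJA1. For KRT18 the closest 5 were P4HTM, LOXL1, PLPP4, TGFBI and KRT81, and for VIM the closest 5 were RHOA (r = 0.999), FADS2, MYH9, TMSB10 and BIN1. KRT18 stood at place 33 in the list of KRT8, with r = 0.9995, and KRT10 had r = -0.973. These values mostly restate the gap between the lines, which all 8 points share, and are given as a description.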

How the data were processed

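RNA from 92.1 and MEL290 cells was sequenced as 150-base paired reads in 8 libraries. According to the study's methods and the submitters' processing notes, the authors aligned reads to GRCh38 with STAR and deposited FPKM values per gene symbol, calculated with Cufflinks over Ensembl release 75. That release belongs to an earlier genome build than GRCh38, so the annotation behind the values could not be settled. Cuffdiff, their test for differential genes, needs reads and could not be used. Since FPKM is divided by transcript length and mapped fragments, no count test was used. Depth was estimated roughly, from the most frequent value of genes with 1 transcript and an FPKM of 0.001 to 0.1, assuming that 200 bases of a transcript cannot start a fragment. The share of those genes within 5% of that value was 17.0% to 29.2%, so no counting interval is given and a value of exactly 0 is described as listed at 0.

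Values were analysed as log2(FPKM + 1), with a minimum FPKM of 1 in at least 2 libraries of a fit, by limma 3.58.1 (R 4.3.3), using lmFit and then eBayes with its trend option. Adjustment was by Benjamini-Hochberg over all genes tested, at a threshold of 0.05. Each line was fitted alone, and the difference of the effects in 1 fit of 8 libraries. The fit was checked on simulated data. Positions and transcripts are those of GENCODE release 44, and promoters those of RefSeq. Shared bases and rough fragment numbers rest on GENCODE release 44, which may differ from the annotation behind the values. The members and the gene lists were chosen with earlier results of these data known. Named genes were the members, every other keratin at 1 FPKM or more in 2 libraries, list genes called with a log2 change of 1 or more or of highest level, and the 5 genes most like KRT8, KRT18 and VIM, of which 1 is not reported here. Further list genes named above were chosen after their values were seen. Alternatives were a pseudocount of 0.1, no filter or a filter in every library, no trend, quantile normalization, upper quartile scaling, a replicate block, 1 fit of all libraries, and each library left out in turn.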

Additional observations from a re-analysis of the deposited data

Results flagged for a closer look

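The change with A3B OE in MEL290 differed from the change with shA3B in 92.1 for KRT18 and KRT14, by the limma test of the difference in 1 fit of 8 libraries. The log2 difference was -0.9105 for KRT18 (adjusted p = 0.016) and -1.5231 for KRT14 (0.048). The same test also passed for KRT16 (-2.071), KRT34 (-1.7344) and KRT31 (-1.0157), but these are listed at 0 in all 4 libraries of 92.1 and entered the fit through MEL290 alone, so their values are the changes in MEL290 and show no difference between the lines. KRT14 passed as well (-1.5231, limma adjusted p = 0.048). It reached 1 FPKM only in the NC libraries and shA3B replicate 1, so it was tested only through libraries where it was higher. Nothing is read from its call. KRT14 stood at 0.482 and 0.522 FPKM in shCtrl and 1.70 and 0.505 in shA3B, so its change in 92.1 came from shA3B replicate 1. Of these genes, KRT18 alone was at 1 FPKM or more in every library of both lines.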

How the results depend on the processing

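The number of genes called in MEL290 was 2065, and 915 without the filter on low FPKM and 774 to 1944 with 1 library left out, lowest when A3B OE replicate 2 was omitted (902 when it was A3B OE replicate 1). In 92.1 it was 1, and 0 without the filter, 2 without the trend and 2 to 7 with 1 library left out. For the difference it was 559, and 328 with the filter in every library and 150 to 285 with 1 library left out, lowest without shA3B replicate 2. The replicate numbers were not shown to pair the samples (correlation of same-numbered deviations 0.19 in 92.1 and -0.029 in MEL290, over 2 pairs each), and with a replicate block the counts were 37, 1521 and 223. Among the members and keratins the block ended 1 call, that of the KRT14 difference (adjusted p = 0.071), which was also lost without the filter (0.115), with a pseudocount of 0.1 (0.069) and in 6 of 8 cases of 1 library left out. The KRT31 difference was lost with the pseudocount of 0.1 (0.083) and in 7 of 8 such cases. The signs of some log2 values that were not called turned when 1 library was left out. KRT10 ranged from -0.2438 to 0.0316 in 92.1, from -0.4499 to 0.2332 in MEL290 and from -0.3438 to 0.3393 for the difference, KRT33B from -0.0034 to 0.288 in MEL290 and for the difference, and VIM from -0.3053 to 0.1333 in 92.1 and from -0.0673 to 0.3713 for the difference. The cause of these changes was not tested. The 12 keratins above every 92.1 library became 13 with control libraries only or without NC replicate 1. Among list genes, LMNA, PPL, OCLN, CLDN4, DST, ZEB1, LGALS1, SPARC and ACTA2 lost their calls in MEL290 without the filter, and LMNB1 did not. With 2 libraries a group and depths of 17700000 to 32200000 fragments, KRT7 and KRT10 had standard errors of 0.26 and 0.25 in MEL290, KRT19 could not be tested, and values near 0 in 92.1 rest on a few fragments.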
